A study of Homo sapiens with 16 samples.

Results

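The genes described here are 10 signalling components through which cells sense interferons: the receptor chains IFNAR1, IFNAR2, IFNGR1, IL10RB and IL28RA, the kinases JAK1, JAK2 and TYK2, and the inhibitors SOCS1 and SOCS3. They were found by symbol, and all 10 were listed in every library, among the 20314 genes of the U251 tables and the 20626 genes of the U343 tables. Reads were counted in 16 libraries of U251 and U343, established human glioblastoma cell lines. The cells had been transfected with control mimic or with miR-137 mimic, each at 25 nM. RNASeq measured total RNA collected 48 hours after transfection, and RIPSeq measured the RNA recovered with antibodies against the poly(A) binding protein PABP, for which the labels give no separate time. The design has 8 groups: control and miR-137 mimic, RNASeq and RIPSeq, U251 and U343, with 2 libraries in each. Nothing in the labels says whether the 2 libraries of a group came from separate cultures, so p-values measure only the spread between these libraries, which may be technical. Both transfections used the same lipid reagent, and there was no group without transfection. The U251 and U343 libraries were made with different cDNA methods (separate reagents in U251, a kit in U343), so the cell line and the method cannot be told apart.

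Type I interferons, which include IFN-beta, bind the chains IFNAR1 and IFNAR2, and type III interferons (the IL28 and IL29 proteins) bind IL28RA together with IL10RB, a chain shared with the IL-10 and IL-22 receptors. IFNGR1 is the ligand-binding chain of the receptor for interferon gamma. The chains carry no kinase of their own and rely on bound JAK1, JAK2 or TYK2, which phosphorylate transcription factors such as STAT2, and STAT2 switches on the interferon-stimulated genes in a complex with IRF9. SOCS1 and SOCS3 are induced by cytokine signalling and shut the kinases off, a negative feedback loop.

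The transfected microRNA carried this mature sequence (RefSeq, GRCh38.p14, chr1:98046091-98046113, minus strand), shown because its seed, bases 2 to 8 in capitals, is the part that selects its targets.
hsa-miR-137-3p: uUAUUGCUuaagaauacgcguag

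RefSeq promoter windows, 250 bases before to 50 after a gene start, were held for 9 of the 10 genes (17 windows, IL28RA under its current symbol IFNLR1), with none for IFNAR2. They were searched on both strands for the core of the interferon-stimulated response element (GAAA, any 2 bases, GAAA), to which the complex of STAT2 and IRF9 binds, and for the gamma-activated site TTCNNNGAA, the letters that STAT dimers bind. The response element core was found in 1 of the 9 genes, SOCS1, against 4.38% of 27305 genes with windows. By windows it was 1 of 17, against 3.57% of 35116 promoter windows of all genes. The SOCS1 window (GRCh38.p14, chr16:11256155-11256454, minus strand) is shown because SOCS1 rose most, with the match in capitals, which begins at position -113 from the gene start.
SOCS1 promoter: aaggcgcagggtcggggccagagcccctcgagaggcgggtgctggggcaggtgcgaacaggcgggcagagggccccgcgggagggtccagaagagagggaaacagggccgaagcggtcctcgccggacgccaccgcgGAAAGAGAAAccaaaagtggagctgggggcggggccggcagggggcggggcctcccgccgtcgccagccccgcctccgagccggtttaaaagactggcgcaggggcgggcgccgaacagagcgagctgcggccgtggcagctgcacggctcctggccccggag
The gamma-activated letters were found in the windows of IL10RB (TTCCCGGAA, at 11 from the start) and IL28RA (TTCCGGGAA, at -238). That is 2 of 9 genes, against 9.38% of all genes with windows, and 2 of 17 windows, against 7.66% of all windows. The 4 windows of JAK2 and the 2 of SOCS3 held neither set of letters. A match is a description of the sequence and not a binding site.

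In the hg18 coordinates of the deposited tables, the genes lay on 7 chromosomes. IFNAR2 (chr21:33524101-33558690), IL10RB (chr21:33560542-33591390) and IFNAR1 (chr21:33619084-33653998) are neighbours, with 1852 bases between IFNAR2 and IL10RB and 27694 between IL10RB and IFNAR1. IFNGR1 (chr6:137560314-137582260) was nearest to IL22RA2, and IL28RA (chr1:24353234-24386338) to IL22RA1. JAK2 (chr9:4975245-5118182), TYK2 (chr19:10322204-10352248), SOCS1 (chr16:11255775-11257540) and SOCS3 (chr17:73864457-73867753) overlapped no other listed gene. JAK1 (chr1:65071494-65204775) shared 7 bases with RAVER2 on the other strand. The counts are summed over merged isoforms of a gene, so the values say nothing on exons, introns or UTRs.

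The libraries held 10156675 to 30731476 counted reads in U251 and 37736206 to 45134766 in U343. Levels are given as CPM, a gene's reads scaled to the counted reads of its library, with TMM scaling within a cell line and assay. Changes were tested with edgeR's quasi-likelihood test, with Benjamini-Hochberg adjustment over all genes tested and a threshold of 0.05. Each of the 10 genes passed the filter on low counts in all 4 experiments. In U251 RNASeq SOCS1, with 13 and 10 reads in controls, did so only through its higher miR-137 libraries. Of 6 glioma or astroglial markers, 5 fell in U251 RNASeq (median log2 fold change -1.22), where 29.0% of all genes fell. Their summed level was 12100 and 12500 CPM in controls and 5820 and 6080 CPM after miR-137. GFAP was 9.03-fold and S100B 7.55-fold lower there. In U251 RIPSeq 0 of the 6 passed (0.263% of all genes fell there), with a median log2 fold change of -0.83. The miR-137 libraries lay wholly below the controls for 5 of the 6 and wholly above for 1 (25.8% and 29.0% of all genes). The sums were 11100 and 15500 CPM in controls and 8030 and 8160 CPM after miR-137. In U343, 2 rose in RNASeq (8.31% of all genes), and 1 fell (GFAP) and 1 rose in RIPSeq (27.8% and 28.5%). The 6 markers summed to 11600 to 16400 CPM over the 8 libraries of this line. The 5 immune cell markers in the tables together stayed between 0.245 and 3.09 CPM. GFAP, the defining astroglial gene, stood at 4600 CPM in U343 and 32.0 CPM in U251 controls (RNASeq means). The epithelial markers KRT5 and CDH1 were read in U343 (1060 and 92.8 CPM in RNASeq controls) and hardly in U251 (0.0319 and 0.126 CPM), while EPCAM was below 0.1 CPM in controls of both lines. The part of these markers in the results was not tested.

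Libraries of 2 groups stood apart from their partners. In the library labelled U343 RNASeq miR-137 replicate 1 the interferon-stimulated genes stayed near the controls in sum: 7 of them summed to 83.3 CPM in it, against 91.8 and 98.2 CPM in the controls and 9590 CPM in replicate 2. Single genes differed from the sum, with IFIT3 at 7.64 CPM in it against 23.5 and 23.1 CPM in controls, and the transducer IRF9 at 29.7 against 10.7 and 10.8 CPM. The interferon ligand genes summed to 0.214 CPM in it and to 35.5 CPM in replicate 2. It did carry other changes of the transfection. Of 1038 genes that were lower by more than 1 on the log2 scale in U343 RIPSeq, 989 were below the control mean in replicate 1 (median log2 difference -1.09) and 1033 in replicate 2 (median -1.18). Of 1010 genes higher by more than 1 there, 809 were above the control mean in replicate 1 (median 0.66) and 1000 in replicate 2 (median 1.29). In U251 RIPSeq the 2 control libraries stood apart from each other, with a median absolute log2 ratio of 0.65 over genes against 0.06 between the miR-137 libraries. The values of the 10 genes that these libraries changed are given with and without them. So are the counts over gene lists, other than the cell type markers and the other receptor chains. Where a U251 RIPSeq control is left out, the spread comes from the close miR-137 pair alone, and the remaining control is assumed to vary like it.

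SOCS1, the direct inhibitor of JAK catalytic activity, rose the most among the 10 genes in the experiments where it passed the test. In U251 RNASeq its counts were 13 and 10 reads in the controls and 40 and 48 reads after miR-137, or 0.721 ± 0.155 and 3.94 ± 0.460 CPM (SD, n = 2, as for all CPM means here). In such bulk libraries a change in the number of cells that hold a transcript and a change in RNA per cell cannot be told apart. The groups did not overlap, and the change was 2.44 ± 0.32 on the log2 scale (SE), 5.42-fold (edgeR adjusted p = 3.01e-05). In U343 RIPSeq it had 43 and 47 reads in controls and 767 and 717 after miR-137, a rise of 4.17 ± 0.15 on the log2 scale (edgeR adjusted p = 1.25e-06). In U251 RIPSeq the controls had 48 and 12 reads and the miR-137 libraries 104 and 112. Here the controls differed widely from each other (2.06 and 0.430 CPM), and the log2 fold change of 1.72 ± 0.71 did not pass (edgeR adjusted p = 0.279). It passed with either control left out, at 3.22 without replicate 1 and 1.06 without replicate 2. In U343 RNASeq the controls had 48 reads each, and the miR-137 libraries 71 and 1677. That library pair spans a 23.5-fold range, which left the log2 fold change of 4.16 ± 1.53 short of the threshold (edgeR adjusted p = 0.131). Without replicate 1 the value was 5.10 (edgeR adjusted p = 1.08e-05).

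SOCS3, an inhibitor that acts through the cytokine receptors, changed by less. It had 682 and 612 reads in U251 RNASeq controls and 766 and 746 in the shallower miR-137 libraries, which is 40.5 ± 4.33 against 67.7 ± 2.06 CPM. The rise was 0.74 ± 0.13 on the log2 scale (edgeR adjusted p = 0.00037). In U343 RIPSeq the controls had 4452 and 5691 reads and the miR-137 libraries 5967 and 7298, or 119 ± 29.2 against 170 ± 23.7 CPM. The rise of 0.51 ± 0.17 passed (edgeR adjusted p = 0.0351), and no longer did so without control replicate 1 (0.27, adjusted p = 0.211) or without miR-137 replicate 2 (0.35, adjusted p = 0.177). In U251 RIPSeq the values were 58.0 and 53.6 CPM in controls and 95.9 and 96.2 CPM after miR-137. The control pair was close for this gene, yet the shared spread of the experiment was wide, and 0.78 ± 0.23 did not pass (edgeR adjusted p = 0.181). It passed without control replicate 1 (0.84) and without control replicate 2 (0.82). In U343 RNASeq, SOCS3 stood at 79.0 and 98.8 CPM in controls and at 126 and 158 CPM after miR-137, replicate 1 included (log2 fold change 0.68 ± 0.18, edgeR adjusted p = 0.0639). Without replicate 1 it was 0.83 (adjusted p = 0.00505), and without replicate 2 it was 0.51 (adjusted p = 0.0351). The miR-137 libraries were above the controls for SOCS3 in all 4 experiments.

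JAK2, the kinase bound to the interferon gamma receptor and to many cytokine receptors, rose in the same 2 experiments as SOCS1. In U251 RNASeq it had 468 and 395 reads in controls and 636 and 560 after miR-137. That is 27.0 ± 4.05 against 53.5 ± 5.44 CPM, a change of 0.99 ± 0.15 (1.98-fold, edgeR adjusted p = 8.85e-05). U343 RIPSeq gave 463 and 448 reads in controls and 2664 and 2462 after miR-137, a change of 2.62 ± 0.10 (6.16-fold, edgeR adjusted p = 1.39e-06). The groups were far apart in both. In U251 RIPSeq the counts were 106 and 329 in controls and 927 and 909 after miR-137, with a log2 fold change of 2.07 ± 0.51 that did not pass (edgeR adjusted p = 0.142). It passed with either control left out, at 1.55 without replicate 1 and 3.01 without replicate 2. In U343 RNASeq they were 747 and 606 in controls and 983 and 4956 after miR-137. Replicate 1, at 23.3 CPM, was above the controls (16.2 and 16.0 CPM) and far below replicate 2 (117 CPM). Over both libraries the log2 fold change was 2.12 ± 0.78 (edgeR adjusted p = 0.130). It was 2.85 without replicate 1 (adjusted p = 1.08e-05) and 0.54 without replicate 2 (adjusted p = 0.00983).

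JAK1 and TYK2, the kinases of the type I and type III receptors, passed as higher in no experiment with all libraries in. JAK1 fell in U251 RNASeq, from 4576 and 5018 reads to 2664 and 2055. Scaled, this was 292 and 307 CPM against 240 and 182 CPM, or -0.50 ± 0.15 on the log2 scale (edgeR adjusted p = 0.0104). Without miR-137 replicate 2 the value was -0.32 (adjusted p = 0.0586). In U343 RNASeq JAK1 stood at 293 and 296 CPM in controls and 290 and 294 CPM after miR-137, with a log2 fold change of -0.01 ± 0.09. In U343 RIPSeq the range was 169 to 202 CPM in controls and 158 to 196 CPM after miR-137, so the groups overlapped. U251 RIPSeq had 2117 and 5386 reads in controls, which bracketed the 4535 and 4885 after miR-137 in CPM (log2 fold change 0.32 ± 0.41, edgeR adjusted p = 0.718). Its direction turned with the control used, at -0.13 with replicate 1 left out and 1.05 with replicate 2 left out, and passed in both.

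TYK2 was below the controls in every miR-137 library of all 4 experiments. It fell in U343 RIPSeq, from 3091 and 3079 reads to 2184 and 2456 (72.1 ± 5.09 against 59.3 ± 4.78 CPM). The change was -0.28 ± 0.09 (edgeR adjusted p = 0.0352), and it did not pass without control replicate 2 (-0.22, adjusted p = 0.171) or without miR-137 replicate 1 (-0.20, adjusted p = 0.175). U251 RIPSeq had 2285 and 1966 reads in controls and 1064 and 1128 after miR-137, with -1.03 ± 0.28 (edgeR adjusted p = 0.158). It passed without control replicate 1 (-0.78) and without control replicate 2 (-1.16). In U251 RNASeq 869 and 745 reads stood against 439 and 481, or -0.30 ± 0.14 after scaling (edgeR adjusted p = 0.0880, and 0.0445 without control replicate 2, at -0.44). U343 RNASeq gave 3908 and 3007 reads against 3102 and 2726, or -0.25 ± 0.11 (edgeR adjusted p = 0.177). Without miR-137 replicate 1 it was -0.36 (adjusted p = 0.0231).

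IFNAR1, the signalling chain of the type I receptor, fell in 2 of the 4 experiments. U251 RNASeq had 844 and 770 reads in controls and 379 and 419 after miR-137, which scaled to 50.5 ± 4.82 and 35.7 ± 2.11 CPM. The log2 fold change was -0.50 ± 0.14 (edgeR adjusted p = 0.00679), and -0.41 without control replicate 1 (adjusted p = 0.0581). In U343 RIPSeq the fall was larger, from 1689 and 1559 reads to 739 and 750 (37.9 ± 0.633 against 19.0 ± 0.155 CPM). Its value was -0.99 ± 0.09, 1.99-fold lower (edgeR adjusted p = 5.93e-05). In U343 RNASeq the controls stood at 39.5 and 36.2 CPM, miR-137 replicate 1 at 34.9 CPM and replicate 2 at 21.1 CPM. Replicate 1 was thus next to the controls and replicate 2 near the RIPSeq level. The log2 fold change was -0.43 ± 0.26 over both (edgeR adjusted p = 0.298) and -0.85 without replicate 1 (adjusted p = 0.00173). In U251 RIPSeq the controls had 737 and 1883 reads (31.6 and 67.4 CPM) and bracketed the miR-137 libraries, with 1137 and 1196. The direction there depended on the control used. It was -0.63 without control replicate 1 (adjusted p = 8.95e-23) and 0.56 without control replicate 2 (adjusted p = 1.36e-13), both with the spread taken from the miR-137 pair alone.

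IFNAR2, the partner chain with the higher affinity for ligand, passed in no experiment. Its counts were low, with 98 and 85 reads in U251 RNASeq controls and 78 and 72 after miR-137. U251 RIPSeq had 203 and 189 against 194 and 199, and U343 RNASeq 271 and 188 against 199 and 212. In U343 RIPSeq, 330 and 290 reads in controls were above 214 and 250 after miR-137 (log2 fold change -0.28 ± 0.14, edgeR adjusted p = 0.114). Its 4 log2 fold changes ran from -0.28 to 0.23. In U251 RIPSeq it did not pass with either control left out (0.12 and -0.15).

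IFNGR1, the interferon gamma receptor chain, was higher after miR-137 in the libraries of all 4 experiments. In U251 RNASeq 478 and 437 reads in controls stood against 408 and 454 in the shallower miR-137 libraries, 28.6 ± 2.69 against 38.6 ± 2.46 CPM. The rise was 0.43 ± 0.14 (edgeR adjusted p = 0.0181), lost without control replicate 2 (0.33, adjusted p = 0.157) or miR-137 replicate 2 (0.36, adjusted p = 0.0820). In U343 RIPSeq, 835 and 855 reads rose to 982 and 965, by 0.33 ± 0.10 (edgeR adjusted p = 0.0226). That call was lost without control replicate 1 (0.24, adjusted p = 0.144) and without either miR-137 library (0.32, adjusted p = 0.0839, and 0.34, adjusted p = 0.0686). U251 RIPSeq had 20.5 and 43.7 CPM in controls and 46.4 and 46.3 CPM after miR-137 (edgeR adjusted p = 0.548). The log2 fold change of 0.53 there became 1.26 without control replicate 2, which passed, and 0.08 without control replicate 1, which did not. U343 RNASeq had 951 and 642 reads in controls and 993 and 978 after miR-137, or 0.31 ± 0.14 (edgeR adjusted p = 0.181), and 0.29 without miR-137 replicate 1 (edgeR adjusted p = 0.161).

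IL10RB, the shared chain of the type III receptor, passed in no experiment at the fixed settings. In U343 RNASeq it had 2960 and 2242 reads in controls and 1932 and 2023 after miR-137. Replicate 1 sat with replicate 2 for this gene (45.9 and 47.7 CPM, against 64.1 and 59.2 CPM), and the log2 fold change of -0.40 ± 0.09 was at the threshold (edgeR adjusted p = 0.0506). It was -0.38 without replicate 1 (adjusted p = 0.0227) and -0.43 without replicate 2 (adjusted p = 0.0166). U251 RNASeq gave 933 and 1047 reads against 592 and 642, -0.16 ± 0.13 after scaling (edgeR adjusted p = 0.291). In RIPSeq, 1623 and 2773 against 2197 and 2320 in U251 and 3653 and 2838 against 2642 and 2862 in U343 overlapped in CPM. The U251 RIPSeq value of 0.00 was -0.23 with control replicate 1 left out and 0.37 with the other control left out, and passed in both.

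IL28RA, the chain specific to type III interferons, was a low-count gene with 59 to 240 reads per library. In U251 RIPSeq it had 188 and 240 reads in controls and 120 and 97 after miR-137, or 8.33 ± 0.373 against 4.08 ± 0.725 CPM. The log2 fold change of -1.03 ± 0.26 did not pass (edgeR adjusted p = 0.146), but did without control replicate 1 (-1.08) and without control replicate 2 (-0.89). Elsewhere the groups overlapped. They had 112 and 88 against 70 and 69 reads in U251 RNASeq, 121 and 112 against 106 and 130 in U343 RNASeq, and 86 and 62 against 59 and 79 in U343 RIPSeq. The log2 fold changes in these 3 experiments were -0.01, 0.00 and 0.04.

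**Figure D1:**
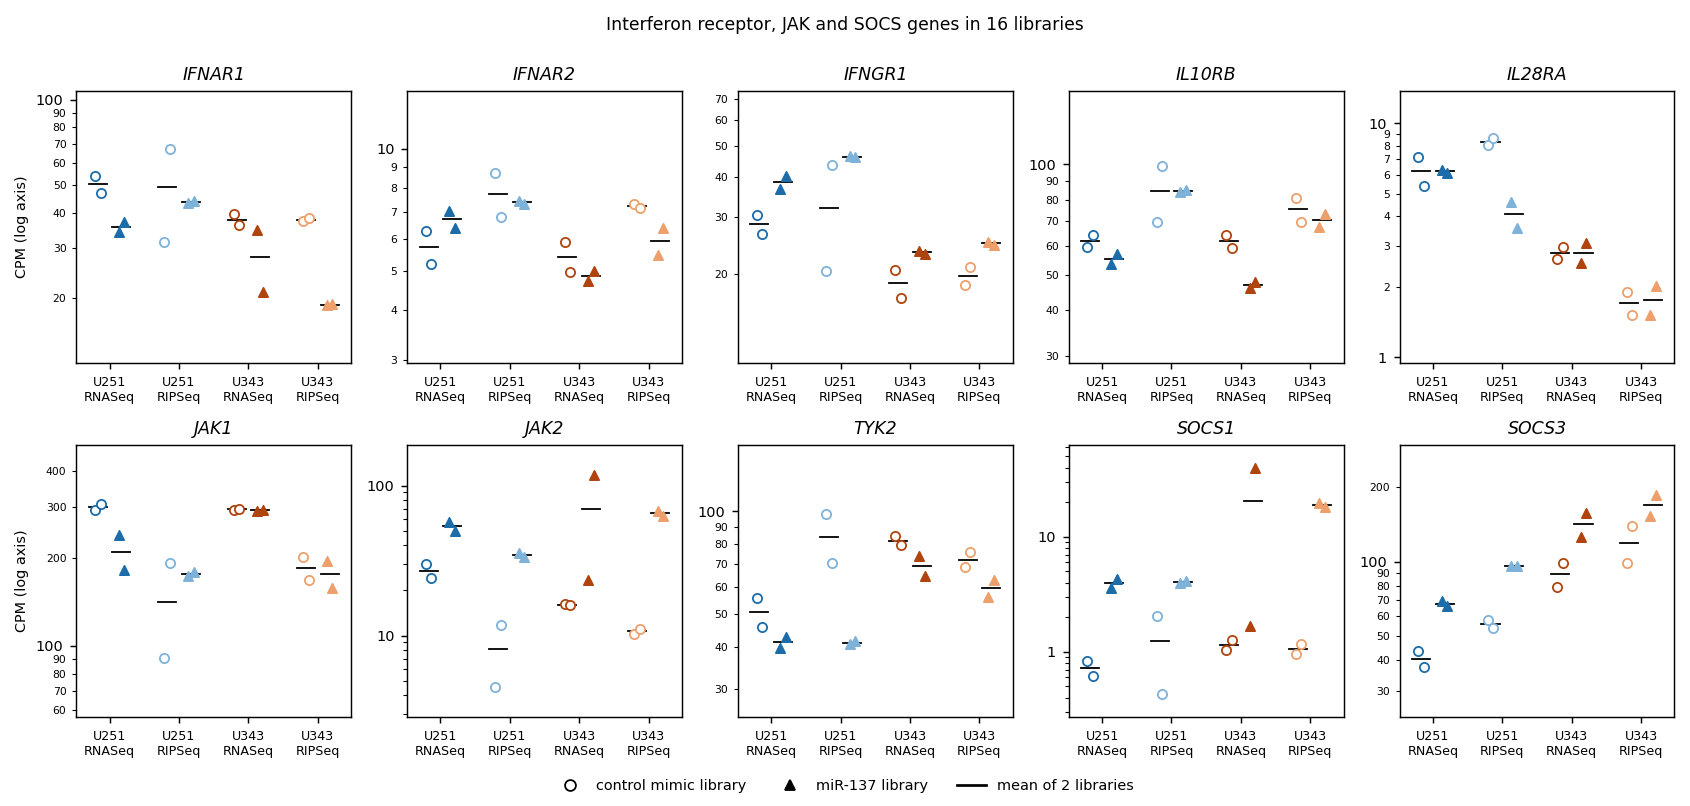
Level of each of the 10 genes in CPM on a log axis, 1 panel per gene, with each point a library (open circles control mimic, filled triangles miR-137) and each bar the mean of 2 libraries. JAK2 and SOCS1 show the widest gaps between groups, and the 2 miR-137 libraries of U343 RNASeq lie far apart for both (23.3 and 117 CPM, and 1.69 and 39.5 CPM).

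Counted by experiment, 2 of the 10 genes fell (IFNAR1 and JAK1) and 4 rose (IFNGR1, JAK2, SOCS1 and SOCS3) in U251 RNASeq, where 29.0% of the 13052 genes tested fell and 28.7% rose. In U343 RIPSeq, 2 fell (IFNAR1 and TYK2) and the same 4 rose, against 27.8% and 28.5% of 14866 genes. With so many genes called in both experiments, a count of 6 in 10 is near the background of 57.7% and 56.3%. In U251 RIPSeq edgeR called 0 of the 10, where 1.21% of 14087 genes were called (0.263% lower and 0.944% higher). There, 4 had an unadjusted p under 0.05, against 20.1% of all genes, and DESeq2 called 1, JAK2. Without control replicate 1, 5 were called lower and 3 higher (35.3% and 32.8% of all genes, 68.1% in all). Without control replicate 2, 2 were called lower and 7 higher (34.2% and 40.2%, 74.4% in all). In U343 RNASeq edgeR called 0 of the 10 (20.0% of 15088 genes, 11.7% lower and 8.31% higher), 4 had an unadjusted p under 0.05 (36.8% of all genes), and DESeq2 called 3, IL10RB, SOCS1 and SOCS3. The median log2 fold change over the 10 genes was 0.11, 0.16, 0.00 and -0.02 in U251 RNASeq, U251 RIPSeq, U343 RNASeq and U343 RIPSeq, and over all genes it was 0.02, -0.02, 0.02 and 0.00. Without regard to a test, the miR-137 libraries lay wholly below the controls for 4 and wholly above for 5 of the 10 in U251 RNASeq (39.2% and 40.3% of all genes). The counts were 2 and 4 in U251 RIPSeq (25.8% and 29.0%), 3 and 4 in U343 RNASeq (32.9% and 32.8%), and 3 and 4 in U343 RIPSeq (38.8% and 39.7%). In a joint fit with the RIPSeq libraries of the line, which shares their spread, 0 fell and 2 rose in U251 RNASeq (SOCS1 and SOCS3). In U343 RIPSeq that fit lost IFNGR1 (edgeR adjusted p = 0.0645) and SOCS3 (edgeR adjusted p = 0.0927). The TYK2 call there was lost with upper-quartile normalization (edgeR adjusted p = 0.0522), and without the filter TYK2 and SOCS3 were lost in U343 RIPSeq and IFNGR1 in U251 RNASeq (edgeR adjusted p = 0.0605, 0.0559 and 0.0739).

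Without miR-137 replicate 1, 3 of the 10 fell in U343 RNASeq (TYK2, IL10RB and IFNAR1) and 3 rose (SOCS1, SOCS3 and JAK2), where 20.3% of 15509 genes tested fell and 19.3% rose. The single miR-137 library is then assumed to vary like the control pair.

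**Figure D2:**
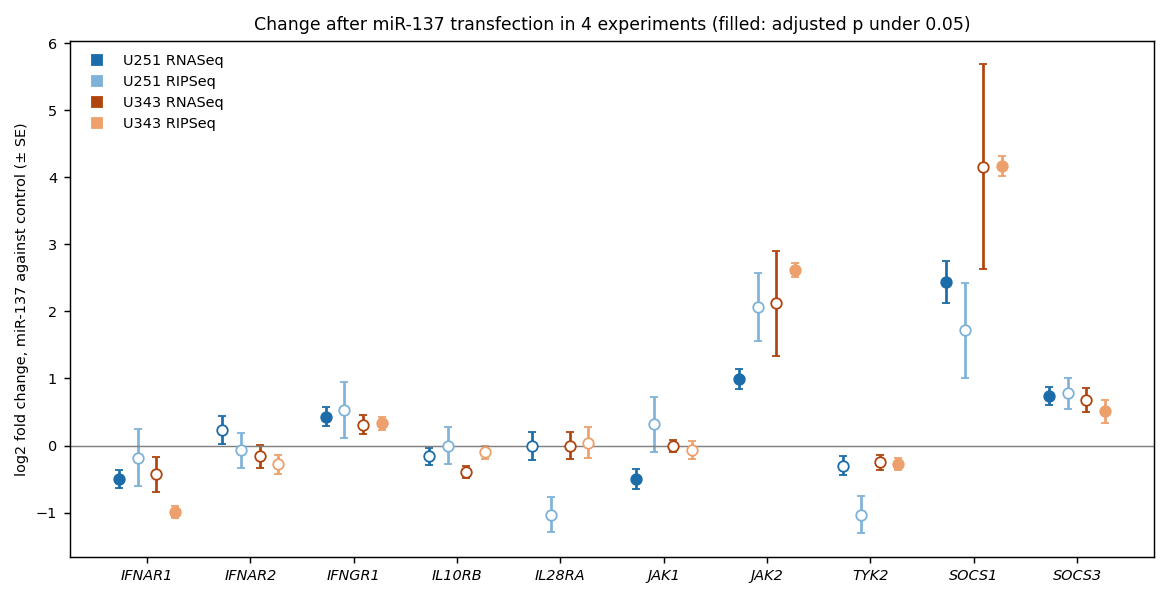
Log2 fold change after miR-137 with its standard error, for each gene in the 4 experiments, with filled points at an edgeR adjusted p under 0.05. SOCS1 and JAK2 lie above 0 in all 4 experiments (1.72 to 4.17 and 0.99 to 2.62), and the SOCS1 bar in U343 RNASeq is the widest (SE 1.53).

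The study's own rule sets every control library against every miR-137 library (4 pairs) by Fisher's exact test, run here two-sided. A gene is called where its odds ratio exceeds 2 with adjusted p below 0.001 in all 4. By this rule 0 of the 10 genes were lower in any experiment. It called 448 genes lower in U251 RNASeq (2.21% of the table), 302 in U251 RIPSeq (1.49%), 595 in U343 RNASeq (2.88%) and 702 in U343 RIPSeq (3.40%). By the mirrored rule for rises, SOCS1 passed in U251 RNASeq (6.14% of genes), JAK2 in U251 RIPSeq (3.47%), and both in U343 RIPSeq (4.83%). In U343 RNASeq 0 of the 10 passed for rises (1.51% of genes), and SOCS1 and JAK2 did without miR-137 replicate 1 (4.43%). IFNAR1, 1.99-fold lower by edgeR in U343 RIPSeq, exceeded an odds ratio of 2 in some of the 4 pairs and not in all. At an odds ratio over 1.5 the rule called IFNAR1 lower in U343 RIPSeq, and IL28RA and TYK2 in U251 RIPSeq. These tests compare single libraries, and the spread between replicates does not enter them.

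The interferon response was read from genes that lie upstream and downstream of the receptors and kinases in the pathway. Whether it ran through these receptors and kinases was not tested. The 7 interferon-stimulated genes all rose in U251 RNASeq and U251 RIPSeq (medians 6.55 and 7.73 on the log2 scale). Among them RSAD2 and OAS1 had 6 and 20 reads in U251 RNASeq controls and 24 and 20 in U251 RIPSeq controls. In U251 these genes passed the filter only through their miR-137 libraries. In U343 RIPSeq 6 of 7 rose (median 7.30). Of all genes, 28.7%, 0.944% and 28.5% rose in these experiments. The exception in U343 RIPSeq was MX1, an antiviral GTPase named after its values were seen, at 7.43 CPM in controls and 8.89 CPM after miR-137. In U343 RNASeq 0 of 7 passed, with a median of 5.85, and 6 of 7 rose without miR-137 replicate 1. In U251 RIPSeq all 7 also rose with either control left out. With all libraries in, 8.31% of all genes rose in U343 RNASeq. For the fits with a library left out, the shares are those given above for the receptors, kinases and inhibitors. Summed, the 7 interferon-stimulated genes stood at 40.4 to 98.2 CPM in the 8 control libraries. After miR-137 they stood at 7010 to 9590 CPM in 7 of the 8 libraries, with the exception given above. SOCS1 and JAK2 were highest in the 3 U343 libraries that carried this response, 18.3 to 39.5 CPM and 62.9 to 117 CPM. IFNAR1 was lowest in the same 3 libraries, 18.9 to 21.1 CPM. The U251 miR-137 libraries carried the response too. They held IFNAR1 at 34.2 and 37.2 CPM in RNASeq (controls 53.9 and 47.1 CPM) and 43.5 and 44.0 CPM in RIPSeq (controls 31.6 and 67.4 CPM). Each experiment was scaled on its own, so these rankings across experiments are side by side only.

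**Figure D3:**
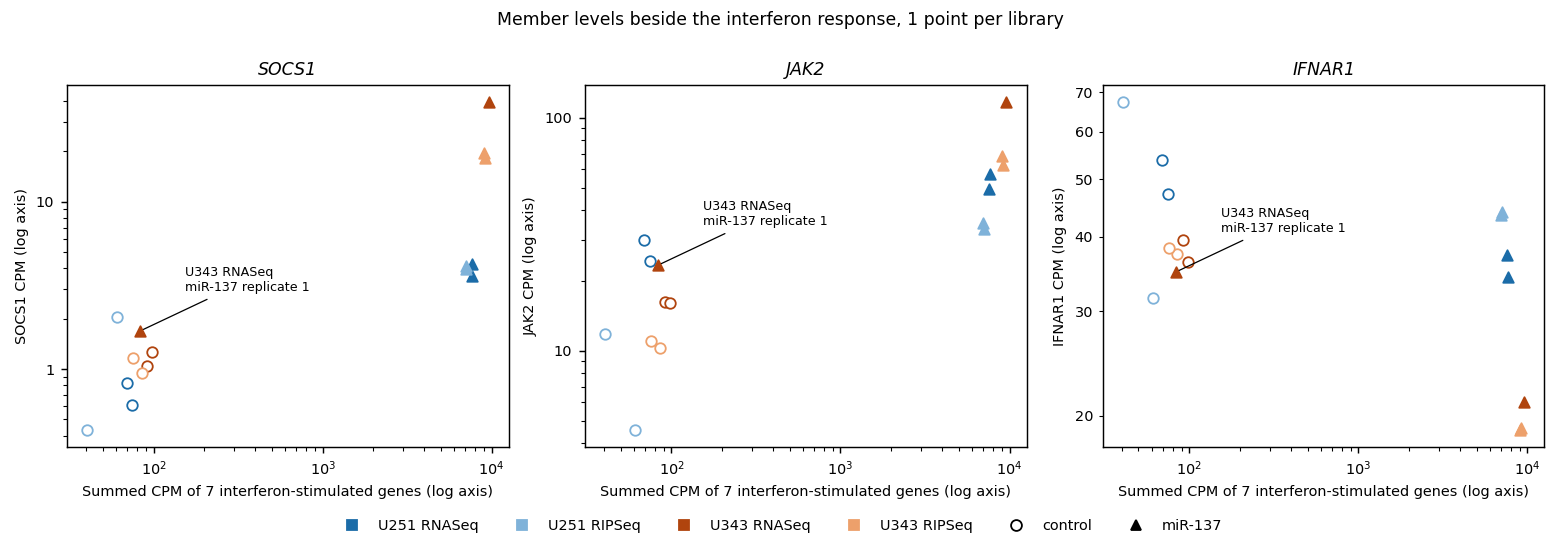
SOCS1, JAK2 and IFNAR1 levels (CPM, log axis) against the summed CPM of 7 interferon-stimulated genes (log axis), 1 point per library, circles for control and triangles for miR-137. The library labelled U343 RNASeq miR-137 replicate 1 lies with the controls on the horizontal axis at 83.3 CPM, and the other 7 miR-137 libraries at 7010 CPM or more.

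Of the ligands, IFNB1, which encodes IFN-beta, had 4 reads in U251 RIPSeq controls and 575 after miR-137, and 1 and 1537 in U343 RIPSeq. The ratios of these sums were 138 (95% exact counting interval 53.7 to 509) and 1690 (302 to 66600), and both passed the edgeR test (adjusted p = 0.0192 and 3.51e-06). IL29, a type III interferon, went from 5 to 435 reads in U251 RIPSeq (edgeR adjusted p = 0.0283) and from 0 to 2306 in U343 RIPSeq, at least 843-fold higher against a floor of 3 counts over the group. IL28A and IL28B, near-identical copies whose reads are hard to tell apart, were at 0 and 2 reads in U343 RIPSeq controls and at 633 and 456 after miR-137. In U251 they stayed at 0 to 6 reads per group. In RNASeq these 4 genes were below the filter, and in U343 RNASeq nearly all their reads came from miR-137 replicate 2. Of the 8 ligand genes listed, 2 of 3 tested rose in U251 RIPSeq (0.944% of all genes did) and 4 of 4 in U343 RIPSeq (28.5%). In U251 RNASeq it was 1 of 1 (28.7%), IFNE, named after its values were seen, at 1.31 and 3.13 CPM. IFNB1, IL28A, IL28B and IL29, with 0 to 5 reads per RIPSeq control group, could pass the filter only through their miR-137 libraries. IFNA1, IFNK and IFNG, with few reads in both groups, were not tested. The filter thus largely set these counts of rises among tested ligands. For the fits with a library left out that follow, the shares of all genes are those given above for the receptors, kinases and inhibitors. In U343 RNASeq IFNE was the 1 gene tested and did not pass (0.267 and 0.236 CPM, edgeR adjusted p = 0.882), and without miR-137 replicate 1, 4 of 5 rose. With either U251 RIPSeq control left out, 3 of 3 rose.

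Of 8 transducers, 3 of 5 tested rose in U251 RNASeq (28.7% of all genes) and 2 of 7 in U251 RIPSeq (0.944%). The U343 counts were 0 of 8 in RNASeq (8.31%) and 4 of 8 in RIPSeq (28.5%). In these experiments 0 fell (29.0%, 0.263%, 11.7% and 27.8% of all genes in the same order). For the fits with a library left out that follow, the shares are those given above for the receptors, kinases and inhibitors. The counts of rises with a U251 RIPSeq control left out were near those shares. Without miR-137 replicate 1, 4 of 8 rose in U343 RNASeq. In U251 RIPSeq 1 fell and 3 rose of 8 without control replicate 1, and 2 fell and 3 rose without the other control. IRF9 rose by 4.72 ± 0.17 in U251 RNASeq, 4.92 ± 0.30 in U251 RIPSeq and 4.13 ± 0.10 in U343 RIPSeq on the log2 scale, and STAT2 by 1.81 ± 0.13, 2.50 ± 0.25 and 2.46 ± 0.11. In U343 RNASeq IRF9 at 3.39 ± 0.95 and STAT2 at 1.75 ± 0.76 did not pass (edgeR adjusted p = 0.075 and 0.177). With a control left out in U251 RIPSeq, IRF9 was at 5.14 or 4.81 and STAT2 at 2.40 or 2.70.

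Among 6 other receptor chains of the same class, of which 4 passed the filter in each experiment, IFNGR2, the partner of IFNGR1, fell in both U343 experiments. Its log2 fold change was -0.45 ± 0.10 in RNASeq (45.7 ± 2.40 against 33.5 ± 1.99 CPM, edgeR adjusted p = 0.0478) and -0.28 ± 0.08 in RIPSeq (70.4 ± 0.0310 against 57.8 ± 0.965 CPM, edgeR adjusted p = 0.0143). Without miR-137 replicate 1 the RNASeq value was -0.52 (edgeR adjusted p = 0.00819). In U251 it was at -0.26 ± 0.14 and -0.29 ± 0.24 and did not pass, while in RIPSeq there it passed without control replicate 1 (-0.40) and did not without replicate 2 (-0.09). IL22RA1, the IL-22 receptor chain that pairs with IL10RB and the neighbour of IL28RA, rose in U251 RNASeq by 4.14 ± 0.32 (14 and 176 reads) and in U343 RIPSeq by 3.23 ± 0.28 (19 and 164 reads). In both experiments IL22RA1 passed the filter on low counts only through its higher miR-137 libraries. IL20RA fell in U343 RIPSeq, with a log2 fold change of -1.31. IL22RA1 and IL20RA were named after their values were seen.

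Of 16 other negative regulators, 6 fell and 3 rose of 14 tested in U251 RNASeq (29.0% and 28.7% of all genes), and 0 and 1 of 15 in U251 RIPSeq (0.263% and 0.944%). In U343, 4 fell and 1 rose of 16 in RNASeq (11.7% and 8.31%), and 6 and 7 of 16 in RIPSeq (27.8% and 28.5%). Without miR-137 replicate 1 the U343 RNASeq counts were 5 and 4 (20.3% and 19.3%). In U251 RIPSeq they were 9 and 3 of 15 without control replicate 1 (35.3% and 32.8%) and 5 and 9 without replicate 2 (34.2% and 40.2%). USP18, which binds IFNAR2 and blocks its signalling, rose by 3.11 ± 0.14 in U251 RNASeq, 3.29 ± 0.29 in U251 RIPSeq (3.52 or 3.17 with a control left out) and 5.08 ± 0.13 in U343 RIPSeq. In U343 RNASeq it was at 4.46 ± 1.64 and did not pass (edgeR adjusted p = 0.13). Among 6 receptors of the gp130 family, which use the same kinases, 1 fell and 1 rose in U251 RNASeq (LIFR and OSMR). In U343, 1 rose in RNASeq (LIFR), and 1 fell and 1 rose in RIPSeq (IL6ST and IL6R). The shares of all genes beside these counts are those given for the negative regulators. In U251 RIPSeq 0 passed with all libraries in, 3 fell and 0 rose without control replicate 1, and 1 fell and 3 rose without replicate 2. Without miR-137 replicate 1, 3 rose in U343 RNASeq (LIFR, OSMR and IL6R). These names were chosen after their values were seen.

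The relative level in PABP-bound and total RNA was compared in control cells. In U343, 3 of the 10 genes were higher in RIPSeq than in RNASeq (IFNAR2, IL10RB and SOCS3) and 3 lower (IL28RA, JAK1 and JAK2), where 24.4% and 24.2% of 14878 genes were (48.6% in all). IL10RB was higher by 0.40 ± 0.09 on the log2 scale (edgeR adjusted p = 0.0108), IFNAR2 by 0.52 ± 0.14 (edgeR adjusted p = 0.0165) and SOCS3 by 0.53 ± 0.17 (edgeR adjusted p = 0.0350). JAK1 was at -0.56 ± 0.10 (edgeR adjusted p = 0.0029) and JAK2 at -0.49 ± 0.10 (edgeR adjusted p = 0.00518), while IL28RA was at -0.59 ± 0.20 with few reads (edgeR adjusted p = 0.0411). Leaving out U343 RNASeq control replicate 2 or either U343 RIPSeq control left 3 calls each (35.5%, 39.5% and 36.6% of all genes), JAK1 and JAK2 among them in all 3 cases. In U251 edgeR called 0 of the 10 (14.0% of 13242 genes), 2 had an unadjusted p under 0.05 (36.9% of all genes), and DESeq2 called 1, JAK2. JAK1 and JAK2 were also below 0 there, at -0.94 ± 0.41 and -1.59 ± 0.47, and IFNAR2, IL10RB and SOCS3 above it. IL28RA lay the other way in U251, at 0.56 ± 0.32. Without U251 RIPSeq control replicate 1, 8 of the 10 were called (54.9% of all genes), and without control replicate 2 there were 7 (75.9%).

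**Figure D4:**
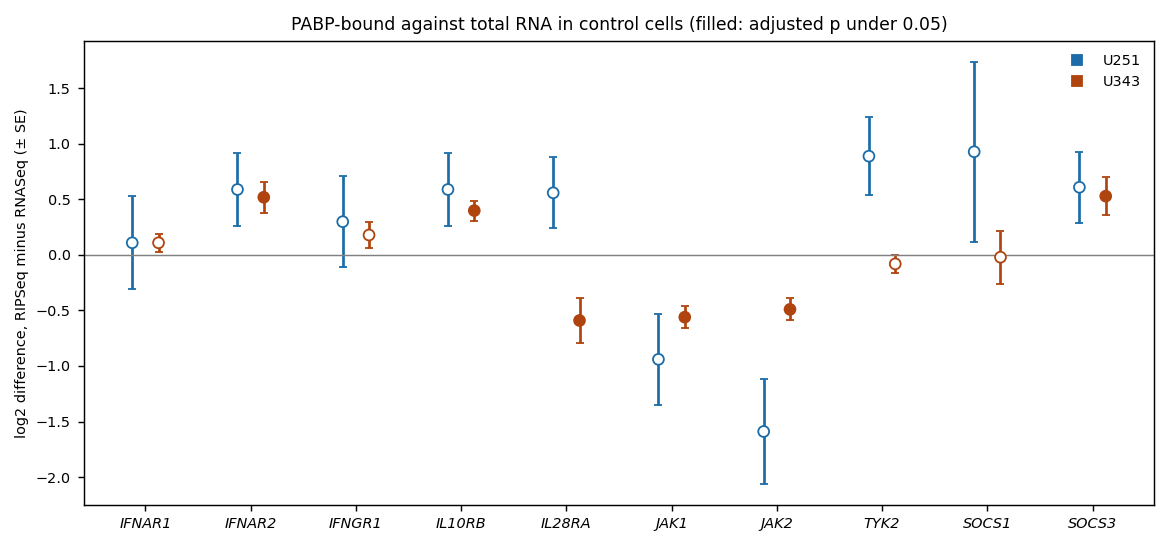
Log2 difference between RIPSeq and RNASeq in control cells with its standard error, for each gene in U251 and U343, with filled points at an edgeR adjusted p under 0.05. JAK1 and JAK2 lie below 0 in both lines, while TYK2 lies at 0.89 in U251 and -0.08 in U343.

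Whether the change after miR-137 differed between total and PABP-bound RNA was tested as an interaction. In U251 edgeR called 0 of the 10 (0.134% of 14210 genes), with 2 at an unadjusted p under 0.05 (18.9% of all genes), IL28RA and TYK2, and 0 called by DESeq2. For IL28RA the change was lower in RIPSeq by a log2 difference of -1.06 (95% interval -1.82 to -0.31, edgeR adjusted p = 0.169), and for TYK2 by -0.79 (-1.55 to -0.03, edgeR adjusted p = 0.25). Without U251 RIPSeq control replicate 1 the count was 1 (IL28RA, where 20.1% of all genes were called), and without control replicate 2 it was 8 (58.0%). In U343 0 of the 10 were called by edgeR or DESeq2 and 0 had an unadjusted p under 0.05 (0.00649% of 15413 genes called, and 17.6% at that p). For SOCS1 the interval ran from -3.96 to 3.96 and for JAK2 from -1.53 to 2.53, so no difference could be detected or bounded closely. For IFNAR1 the difference was -0.56 (-1.24 to 0.13). Without U343 RNASeq miR-137 replicate 2, which leaves the library without the response, 3 were called (SOCS1, IFNAR1 and JAK2, where 19.8% of all genes were).

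Between the cell lines, 0 of the 10 changes differed in edgeR in RNASeq (25.2% of 15550 genes called) or RIPSeq (3.28% of 15959). DESeq2 called JAK1 in RNASeq and SOCS1 in RIPSeq. The unadjusted p was under 0.05 for 1 gene in RNASeq (38.6% of all genes), JAK1, whose fall in U251 was not seen in U343 (log2 difference of changes 0.48, edgeR adjusted p = 0.127). It was under 0.05 for 3 in RIPSeq (21.0% of all genes). For SOCS1 the log2 difference of changes was 2.50 toward U343 and did not pass (95% interval 0.70 to 4.30, edgeR adjusted p = 0.122). It was 0.97 without U251 control replicate 1 (edgeR adjusted p = 0.115) and 3.21 without replicate 2 (edgeR adjusted p = 1.02e-05). Over all libraries the values of IL28RA and TYK2 were 1.12 and 0.81 (edgeR adjusted p = 0.127 and 0.182). In RNASeq the difference for SOCS1 was 1.71 (-2.49 to 5.90) over all libraries. Its direction turned with the library left out. Without U343 RNASeq miR-137 replicate 1, the rises of SOCS1 and JAK2 were larger in U343 than in U251. Without replicate 2, which leaves the library without the response, the rise of SOCS1 was smaller in U343. In RIPSeq 4 genes were called without U251 control replicate 1 (33.7% of all genes) and 7 without control replicate 2 (52.8%).

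Across the 16 libraries the 10 genes did not vary as a block. On log2(CPM + 1), SOCS1 and JAK2 had a Pearson r of 0.794 and SOCS1 and SOCS3 one of 0.659, while IFNAR1 and SOCS1 had -0.833 and JAK2 and TYK2 -0.565. For this the values were scaled with TMM over the 16 libraries together. They mix cell line, assay and transfection, so these are descriptions over 16 points that share groups. By the same measure, over 13267 genes with a mean of at least 1 CPM, the genes most like SOCS1 were ZBTB42 (0.985) and LMO2 (0.980), and those most like JAK2 were ELF1 (0.969) and ZNFX1 (0.967). SOCS3 was most like ZNF205 (0.968) and CX3CL1 (0.955). For the other kinases they were DIS3 and GNAQ (JAK1, 0.946 and 0.933) and INTS1 and IRAK1 (TYK2, 0.964 and 0.961). For the receptor chains they were AGPAT5 and METTL2A (IFNAR1, 0.95 and 0.924), PCBP2 and C7orf31 (IFNAR2, 0.895 and 0.886) and CNOT8 and P4HA1 (IFNGR1, 0.959 and 0.946). IL10RB was most like TMEM165 and ATP1B3 (0.953 and 0.935), and IL28RA most like MTHFD1L and NANOS1 (0.964 and 0.959).

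Side by side and without a test, since each line was scaled on its own, IL28RA stood at 6.27 ± 1.25 CPM in U251 and 2.79 ± 0.238 CPM in U343 RNASeq controls, and SOCS3 at 40.5 ± 4.33 and 88.9 ± 14.0 CPM. TYK2 stood at 50.5 ± 7.03 and 82.0 ± 3.72 CPM, and JAK2 at 27.0 ± 4.05 and 16.1 ± 0.128 CPM. JAK1 (292 and 307 CPM in U251, 293 and 296 CPM in U343), IL10RB (61.8 ± 3.14 and 61.6 ± 3.48 CPM) and IFNAR2 (5.73 ± 0.750 and 5.42 ± 0.641 CPM) were within their spread of each other. Basal SOCS1 was low in both, at 0.721 ± 0.155 and 1.15 ± 0.161 CPM.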

How the data were processed

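The files hold read counts per gene in 16 libraries. According to the methods of the study, the authors used RMAP for alignment to hg18 and counted reads on 1 merged transcript per RefSeq gene, and the deposited counts carry no normalization. The treatment of reads with several matches is not given in the sources used here. The labels gave each library its transfection, assay and cell line. The 10 genes, the gene lists and the alternatives were chosen with earlier results of these data known. A transducer gene is not reported here. A gene listed on 2 lines in the U251 tables was kept once.

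Within each cell line and assay, counts were compared with edgeR 4.0.16 in R 4.3.3 (filterByExpr, TMM, quasi-likelihood test, Benjamini-Hochberg adjustment, threshold 0.05), and the procedure was tested on simulated counts. The study compared libraries in pairs with Fisher's exact test, and that rule was run as well. Interactions were fitted over 8 libraries of a line or an assay. Alternatives were DESeq2 1.42.0, upper-quartile normalization, a joint fit of 8 libraries, a replicate block, no filter beyond 1 read, a filter of 50 reads on average, and each library left out. Leaving out libraries for the listed genes and for USP18 was added after seeing the data. Other named genes followed from lists, from overlap, or from the highest correlation with a listed gene. A correlation check of same-numbered libraries gave -0.20 to 0.28, and the numbers were not taken to pair libraries.

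Depth was 10156675 to 45134766 counted reads. Counting intervals are exact at 95%, floors are 3 counts over a group, and both cover counting error only, since PCR reads without molecular identifiers are not independent molecules.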

Additional observations from a re-analysis of the deposited data

Results flagged for a closer look

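USP18, the negative regulator that binds IFNAR2, rose in RIPSeq of both cell lines, by 3.29 on the log2 scale in U251 and 5.08 in U343, and the test of the difference itself passed. The rise was larger in U343 by 1.85 on the log2 scale (edgeR interaction test, adjusted p = 0.0254, where 3.28% of 15959 genes were called). It stayed past the threshold with either U251 control left out (1.59 and 2.02). It missed it when any of the other 6 libraries was left out (1.72 to 1.96, adjusted p = 0.123 to 0.198) and with the replicate block (1.84, adjusted p = 0.0576). In RNASeq the same difference was 1.34 ± 1.52 and did not pass (edgeR adjusted p = 0.556). Interferon-stimulated genes called in the RIPSeq test went the other way, toward U251: MX1 (-6.39), IFIT1 (-2.26), OAS1 (-2.1) and IFIT3 (-1.71). RSAD2 (-1.6), IFIT2 (-0.37) and ISG15 (1.69) were not called. The lines were made with different cDNA methods, so the line and the method cannot be told apart.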

How the results depend on the processing

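Of 399 recomputed log2 fold changes of the 10 genes, 313 kept their direction and their side of the threshold, 40 passed it anew, 21 no longer passed and 25 changed sign. With DESeq2, the counts of genes called became 1 higher in U251 RIPSeq, 1 lower and 2 higher in U343 RNASeq, 1 in U251 between RIPSeq and RNASeq, and 1 in either test between cell lines. The joint fit gave 0 lower and 2 higher in U251 RNASeq, 2 lower and 2 higher in U251 RIPSeq, 1 lower and 3 higher in U343 RNASeq, and 2 higher in U343 RIPSeq. Upper-quartile normalization and the absence of a filter left 1 lower in U343 RIPSeq, and the filter of 50 reads called 1 lower in U343 RNASeq. An odds ratio over 1.5 in the pairwise rule gave 2 lower in U251 RIPSeq and 1 in U343 RIPSeq. The causes were not tested.

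With the replicate block, 2 genes were higher in U251 RIPSeq, 1 in U343 RNASeq and 1 was called between RIPSeq and RNASeq in U251, and no other count of these genes moved by over 1.5 times. Over all genes the block moved the calls from 170 to 802 in U251 RIPSeq and from 1855 to 4036 between RIPSeq and RNASeq in U251, from 19 to 0 and 1 to 0 in the interactions with assay, and from 524 to 140 in that with cell line in RIPSeq. Same-numbered libraries correlated at 0.03, 0.04, 0.14 and 0.28 in the 4 experiments. Between the U343 control assays the value was -0.20, and a crossed pairing, chosen after seeing the data, gave 6 of the 10 genes and 8069 of all genes, against 6 and 7231.

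Values that changed sign all belonged to genes that had not passed. IL28RA in U251 RNASeq became 0.13 (upper quartile), 0.06 (filter of 50 reads) and 0.01 (joint fit), and -0.21 to 0.20 with a library left out. In U343 RNASeq it became -0.02 without a filter, 0.00 with the block and -0.01 in the joint fit, and -0.15 to 0.13 with a library left out. IL10RB in U251 RIPSeq became -0.02 with DESeq2 and in the joint fit, -0.04 with the upper quartile and 0.00 with the filter of 50 reads. IFNAR2 in U251 RIPSeq became 0.02 without a filter, and JAK1 in U343 RNASeq 0.02 with the upper quartile. Leaving out a library gave -0.63 to 0.56 for IFNAR1, -0.15 to 0.12 for IFNAR2, -0.23 to 0.37 for IL10RB and -0.13 to 1.05 for JAK1 in U251 RIPSeq. In U343 RIPSeq it gave -0.21 to 0.01 for IL10RB, -0.19 to 0.23 for IL28RA and -0.23 to 0.08 for JAK1.

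Leaving out each library in turn gave 1 to 3 genes lower and 3 to 4 higher in U251 RNASeq, 0 to 5 and 0 to 7 in U251 RIPSeq, 0 to 3 and 0 to 3 in U343 RNASeq, and 1 to 2 and 2 to 4 in U343 RIPSeq. For RIPSeq against RNASeq it gave 0 to 8 in U251 and 3 to 4 in U343. For the interactions it gave 0 to 8 (assay, U251), 0 to 3 (assay, U343), 0 to 2 (cell line, RNASeq) and 0 to 7 (cell line, RIPSeq). The pairwise rule gave 0 to 1 lower in either RIPSeq experiment. A group left with 1 library is assumed to vary like the others. All genes called by DESeq2 and edgeR were 1123 and 170 in U251 RIPSeq, and without a filter edgeR called 59. In the joint fit they were 2355 there, 2951 against 7529 in U251 RNASeq and 5033 against 3018 in U343 RNASeq. Low counts of SOCS1 in controls and of IL28RA and IFNAR2 throughout limit what could be detected for them.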
